A study of Mus musculus with 15 samples.

Results

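The genes described here encode 40 proteins that build or control the lysosome, the acid compartment in which cells digest proteins, sugars and lipids. They were taken by gene symbol as a list of known lysosomal genes, and all 40 were found among the 56748 genes of the deposited tables. By role they comprised 8 cysteine proteases (cathepsins and legumain), 3 other proteases, 11 glycosidases, 4 sulfatases, 4 lipid hydrolases and cofactors, 6 membrane proteins, 3 subunits of the proton pump and the transcription factor Tfeb.

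RNA was sequenced from the tibialis anterior (TA), a fast muscle of the lower hind limb, of 8-week-old male C57BL/6 mice. Cardiotoxin (CTX) is a snake venom toxin that lyses muscle fibers and leaves the stem cells able to rebuild them. Injured muscles had received 50 µL of 0.1 mg/mL CTX in buffered saline with the analgesic Meloxicam and were taken at day 4 (Proliferation Stage, 4 libraries), day 7 (Differentiation Stage, 4 libraries) or day 14 (Maturation Stage, 4 libraries). The Uninjected group of 3 libraries came from TA muscle without CTX, for which the methods describe separate uninjured mice and the labels name no origin. Injured and control mice alike were given heavy water. The labels call the material bulk tissue, whereas the methods describe isolated muscle fibers together with the cells that remained on them, such as satellite cells. The sources thus do not settle whether a library holds RNA of all cells in the muscle or only of fibers and the cells on them. Removal of CD45+ leukocytes is described for the protein and DNA samples and is not stated for the RNA.

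Lysosomal enzymes are made as precursors, tagged with mannose-6-phosphate and matured by the low pH that the vacuolar proton pump maintains. Macrophages that clear dead fibers carry many lysosomes, and the osteoclast, a relative of the macrophage, secretes cathepsin K and acid to dissolve bone. In muscle fibers, lysosomes complete autophagy and break down glycogen, the step that fails in Pompe disease when acid alpha-glucosidase is missing. Many lysosomal genes carry the CLEAR element, a palindrome around the letters CACGTG that TFEB and its relatives bind.

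The promoters of the listed genes were searched for these letters because the list holds both the factor and its known targets. RefSeq promoter sequences of build GRCm38.p6, from 250 bases before to 50 bases after each start, were matched for 33 of the 40 genes. CACGTG, which reads the same on both strands, was found in 11 of the 33 genes (33.3%), against 8.09% of all 27025 genes with a promoter in that set. TCACGTGA, the longer palindrome that contains CACGTG, was found in 4 of the 33 (12.1%) against 1.12% of all genes, and GTCACGTG, searched on both strands and overlapping the others, in 9 (27.3%) against 2.55%. A match is a string of letters and not a measured binding site. Because the list holds known targets, an excess was likely beforehand, and it says nothing of regulation in these samples. Each line below gives 30 bases on the sense strand, 5′ to 3′, with CACGTG in capitals, followed by its place and the position of the motif from the start. The first 4 genes hold the longer palindrome, and Lgmn, Gaa and Lamp1 are shown because their RNA moved in different directions after injury.
Ctsa: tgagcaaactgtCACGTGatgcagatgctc (chr2:164833749-164833778, plus strand, -12)
Ctsd: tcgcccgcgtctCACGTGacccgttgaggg (chr7:142387908-142387937, minus strand, -98)
Gla: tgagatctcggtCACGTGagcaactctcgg (chrX:134601182-134601211, minus strand, -194)
Mcoln1: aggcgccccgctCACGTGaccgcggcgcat (chr8:3500462-3500491, plus strand, -45)
Lgmn: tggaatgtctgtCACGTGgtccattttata (chr12:102439124-102439153, minus strand, -49)
Gaa: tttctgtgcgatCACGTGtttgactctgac (chr11:119267811-119267840, plus strand, -140)
Lamp1: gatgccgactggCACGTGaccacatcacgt (chr8:13159121-13159150, plus strand, -28)

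Lamp1 held 4 copies of CACGTG between -61 and -15. The other genes with the motif were Ctsl, Glb1, Naglu and Sgsh.

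The values are FPKM, fragments counted per kilobase of gene and scaled for library depth, so that levels of genes of different length can be set side by side. From the steps between low values, the libraries held between 1471325 and 7208725 fragments in genes, a 4.90-fold range. The fewest belonged to the Differentiation Stage and the most to the Proliferation Stage. Of the 40 genes, 27 had 10 or more fragments in every library and 13 fell under 10 in at least 1, so levels under about 1 FPKM are imprecise. The deposited values did not sum to equal totals. Their totals ran from 168508 to 385621 FPKM in the Proliferation Stage and from 469399 to 492337 FPKM in the Uninjected group, while over the 11651 genes above 0 in all 15 libraries the median ratio to the geometric mean was between 0.01 and 0.05 (log2) in each. Rescaling each library to equal totals raised the median of all genes by 0.84 (log2) in the Proliferation Stage and by 0.53 in the Differentiation Stage relative to Uninjected. Changes below are on the deposited scale. The labelled tissue was checked with 10 markers of adult fast fibers, which summed to 69358 to 113355 FPKM in the Uninjected libraries, with Ckm at a mean of 4505 FPKM and Myh4 at 9304 FPKM.

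At day 4 most of the lysosomal genes stood above the uninjected muscle. In the Proliferation Stage 26 of the 40 genes rose and 1 fell, by limma with Benjamini-Hochberg adjustment over all 13166 genes tested, where 20.1% of all genes rose and 9.05% fell. The median change of the 40 genes was 1.33 (log2 of FPKM + 0.5) beside 0.05 for all genes. In 30 of the 40, all 4 injured libraries lay above the 3 Uninjected libraries, as they did in 25.6% of all genes tested. The Proliferation Stage held the highest of the 4 group means in 32 of the genes, and in 19 the means stood in the order day 4, day 7, day 14, Uninjected. Neither pattern was counted over all genes.

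At day 7 fewer genes were called higher and more were called lower. In the Differentiation Stage 16 of 39 genes tested rose and 4 fell, where 17.0% of all genes rose and 12.5% fell, and the median of the 39 was 0.66 beside 0.06 for all genes. At day 14, 0 of 39 rose and 0 fell by limma, where 0.0245% of all genes rose and 0.0% fell. At an unadjusted p under 0.05, 6 of these genes were higher and 2 lower at day 14, against 7.88% and 5.33% of all genes. The per-gene test on untransformed FPKM that the study's methods use, with the same adjustment, called 1 gene at day 4 (Ctsk), 3 at day 7 and 0 at day 14. Under every other alternative analysis run, 20 of the 27 calls at day 4 and 9 of the 20 at day 7 were kept. Without Uninjected replicate 1, or without replicate 2, 10 genes rose at day 7. The 9 kept at day 7 were Ctsh, Ctsk, Ctss, Ctsz, Lgmn, Glb1, Gusb, Grn and Tcirg1. Conversely, 9 genes gained a call at day 4 in at least 1 alternative, namely Ctsl, Ctsd, Tpp1, Gaa, Gla, Neu1, Idua, Psap and Scarb2. At day 7, 6 genes gained a call in this way. Below, a gene passes by limma as above unless an alternative is named. Bulk RNA cannot separate fewer cells of a type from less RNA per cell, and this holds for each level given here.

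**Figure D1:**
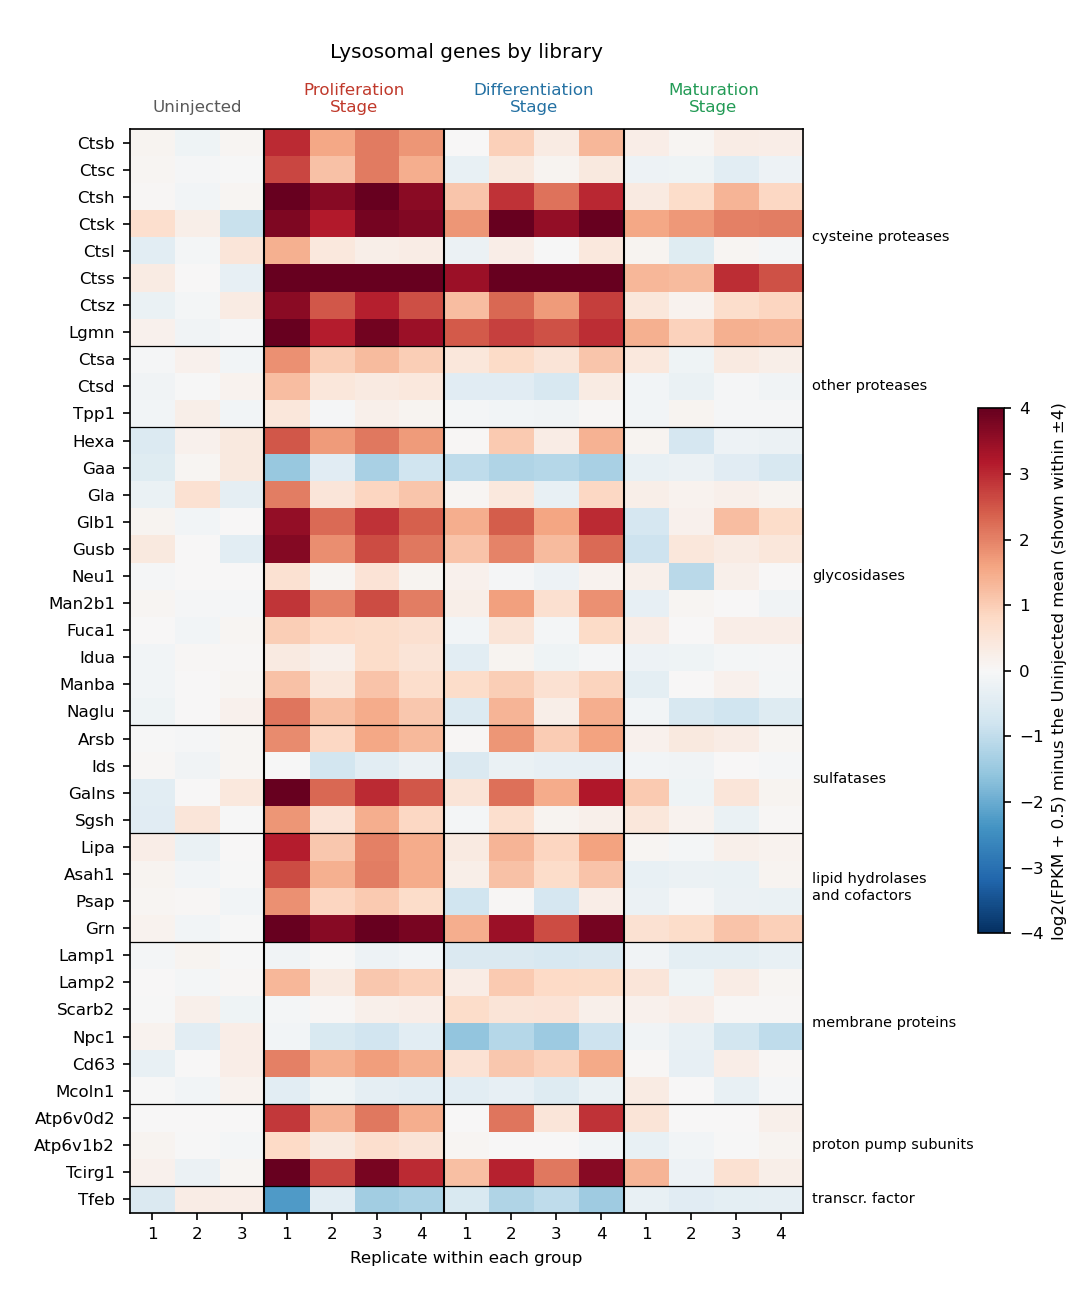
Level of each of the 40 genes (rows, grouped by role) in each of the 15 libraries (columns), as log2(FPKM + 0.5) minus the Uninjected mean, shown within ±4. The Proliferation Stage columns are red for most rows, with 26 of 40 genes called higher, and the Gaa and Tfeb rows are blue in the Proliferation and Differentiation Stages.

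Of the 8 cysteine proteases, 7 rose at day 4 and 5 at day 7, with medians of 3.27 and 2.15. Over all genes, 20.1% rose at day 4 and 17.0% at day 7. Ctss encodes cathepsin S, an elastin-degrading protease of antigen-presenting cells that also trims the invariant chain of MHC class II, and lies on chromosome 3 at 95526786 to 95556403 (GRCm38, GENCODE M21, as for the other positions given below). It stood at 429.6, 201, 299 and 194 FPKM in the Proliferation Stage, and at 8.93, 105, 41.4 and 156 FPKM in the Differentiation Stage. The Maturation Stage libraries held 1.71, 1.60, 6.22 and 4.63 FPKM, against 0.606, 0.372 and 0.188 FPKM in Uninjected. The groups did not overlap at any of the 3 stages, and the largest spread was at day 7, where the lowest library was Differentiation Stage replicate 1. The log2 change was 8.25 (SE 0.33, adjusted p = 1.42e-05) at day 4 and 5.86 (SE 0.84, adjusted p = 0.00262) at day 7. Because Ctss rested on only 4 fragments in the 3 Uninjected libraries together, the ratio of summed fragments, 875-fold at day 4, has a 95% exact counting interval of 342 to 3213.

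Ctsk, the neighbour of Ctss with 17423 bases between the genes, encodes cathepsin K, the collagen-degrading protease known from osteoclasts. It was at 24.2, 16.2, 26.2 and 23.5 FPKM at day 4 and at 5.79, 47.8, 20.6 and 37.4 FPKM at day 7. At day 14 it was at 4.98, 5.75, 7.11 and 7.27 FPKM, above the 2.45, 1.67 and 0.507 FPKM of Uninjected. It rose by 3.61 (SE 0.36, adjusted p = 0.000439) at day 4 and by 3.58 (SE 0.68, adjusted p = 0.00715) at day 7. Ctsk was 1 of only 2 genes, with Scarb2, whose mean was highest at day 7, and the day 7 and day 4 libraries overlapped. Of 9 markers of fibro-adipogenic progenitors, 4 rose and 1 fell at day 7 against Uninjected. The largest rises were of the collagen genes Col1a1 (4.55, adjusted p = 0.0175) and Col3a1 (4.53, adjusted p = 0.00633). From day 4 to day 7 the median change of the 9 markers was -0.04. Over that step only Cd34 was called higher and only Gsn lower, and neither collagen gene was called. The ratio of Ctss to Ctsk was 17.8, 12.4, 11.4 and 8.26 at day 4, and 1.54, 2.20, 2.01 and 4.18 at day 7. It was below 1 in the 7 libraries of the Maturation Stage and Uninjected, where it ran from 0.223 to 0.875.

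Lgmn encodes legumain, which cuts after asparagine and activates other lysosomal proteases (chromosome 12, 102394084 to 102439813). Its values were 248, 82.1, 138 and 102 FPKM at day 4 and 51.3, 63.0, 54.8 and 72.4 FPKM at day 7. At day 14 they were 24.7, 17.5, 24.9 and 23.6 FPKM, and in Uninjected 10.3, 8.06 and 8.69 FPKM. The lowest day 14 library thus lay above the highest Uninjected library. Lgmn rose by 3.79 (SE 0.38, adjusted p = 0.000439) at day 4 and by 2.67 (SE 0.19, adjusted p = 0.000291) at day 7, and its day 7 call also held under the methods' own test.

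Ctsh, the aminopeptidase cathepsin H, was at 30.5, 15.6, 23.2 and 15.1 FPKM at day 4, 2.25, 8.94, 5.30 and 9.79 FPKM at day 7, and 1.16, 1.61, 2.82 and 1.79 FPKM at day 14. Uninjected muscle held 0.823, 0.675 and 0.852 FPKM, from 6 to 15 fragments. Ctsh rose by 4.02 (SE 0.27, adjusted p = 6.34e-05) and 2.29 (SE 0.42, adjusted p = 0.00633) at days 4 and 7. Ctsz, the carboxypeptidase cathepsin Z, was more abundant from the start. It was at 12.6, 14.4 and 19.0 FPKM in Uninjected, 188, 86.6, 133 and 92.3 FPKM at day 4, and 36.5, 76.4, 49.7 and 107 FPKM at day 7. Its rise was 2.94 (SE 0.33, adjusted p = 0.00078) and then 2.00 (SE 0.36, adjusted p = 0.00534), and at day 14 its 16.6 to 27.8 FPKM overlapped Uninjected.

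Ctsb and Ctsc rose at day 4 and were lower at day 7 than at day 4. Ctsb, the broadly expressed cathepsin B, averaged 241 ± 118 FPKM (SD, n = 4) at day 4 against 52.1 ± 5.64 FPKM (SD, n = 3) in Uninjected, a rise of 2.09 (SE 0.39, adjusted p = 0.00683). Its day 7 change of 0.66 (SE 0.32) gave an adjusted p of 0.15. Ctsc, cathepsin C, which activates the serine proteases of immune cell granules, averaged 21.8 ± 10.5 FPKM against 5.25 ± 0.243 FPKM, a rise of 1.84 (SE 0.34, adjusted p = 0.00704), and its change at day 7 was 0.14 (SE 0.20, adjusted p = 0.622). Ctsl, the endoprotease cathepsin L, passed at no stage, with a median of 21.1 FPKM at day 4 and of 15.6 FPKM in Uninjected. Proliferation Stage replicate 1 alone, at 44.5 FPKM, lay far above the other 3. Exons of Ctsl share 26.8% of their length with an antisense gene, Gm47123, and the library kit does not mark strand, so reads of the pair cannot be told apart.

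The other proteases changed less. Ctsa, cathepsin A, a carboxypeptidase that also shields beta-galactosidase and sialidase, rose by 1.27 (SE 0.26, adjusted p = 0.0105) at day 4 and by 0.72 (SE 0.20, adjusted p = 0.0296) at day 7. Ctsd, the aspartic protease cathepsin D and the most abundant of the 11 listed proteases in uninjected muscle at 177 ± 17.1 FPKM, gave 281 ± 90.4 FPKM at day 4 (adjusted p = 0.204) and 149 ± 50.6 FPKM at day 7 (adjusted p = 0.446). Exons of Ctsd share 34.4% of their length with Gm49369 on the same strand. Tpp1, a tripeptidyl peptidase, stayed between 11.0 and 16.7 FPKM in all 15 libraries and passed at no stage.

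Among the 11 glycosidases, 7 rose at day 4, and at day 7 3 rose and 1 fell. Over all genes, 20.1% rose at day 4, and 17.0% rose and 12.5% fell at day 7. The day 7 counts alone thus do not set this class apart. Glb1, the beta-galactosidase whose activity marks senescent cells, was at 11.9, 4.75, 7.58 and 5.17 FPKM at day 4 and at 2.46, 5.35, 2.78 and 8.15 FPKM at day 7. Day 14 libraries held 0.193, 0.722, 2.04 and 1.31 FPKM and Uninjected 0.684, 0.504 and 0.594 FPKM. The first stages lay clear of Uninjected, and day 14 lay on both sides of it. The rise was 2.76 (SE 0.31, adjusted p = 0.00073) at day 4 and 2.11 (SE 0.37, adjusted p = 0.00503) at day 7, from 15 fragments in Uninjected. Gusb, beta-glucuronidase, was at 31.0, 8.45, 14.5 and 10.1 FPKM at day 4 and 4.89, 9.22, 5.43 and 11.3 FPKM at day 7. It was at 0.892, 2.87, 2.62 and 2.89 FPKM at day 14 and at 2.71, 2.00 and 1.35 FPKM in Uninjected. Both early stages were above Uninjected in each library, by 2.57 (SE 0.42, adjusted p = 0.00411) and 1.66 (SE 0.32, adjusted p = 0.00716).

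Gaa, acid alpha-glucosidase, which frees glucose from glycogen in the lysosome (chromosome 11, 119267887 to 119285454), moved the other way. Its levels were 58.0, 86.3 and 106 FPKM in Uninjected and 40.2, 34.9, 36.8 and 32.5 FPKM at day 7, without overlap. At day 4 they were 27.8, 58.8, 32.5 and 46.25 FPKM, overlapping Uninjected, and at day 14 65.4, 69.5, 59.1 and 51.9 FPKM. Gaa fell by 1.16 (SE 0.23, adjusted p = 0.00832) at day 7. Its change of -1.02 (SE 0.35) at day 4 missed the threshold with an adjusted p of 0.0564, and the day 7 call was lost on rescaling to equal totals (adjusted p = 0.0635). Of the 10 adult fiber markers, 3 also fell at day 7, namely Actn3 by 1.66 (adjusted p = 0.0198), Ckm by 1.27 (adjusted p = 0.0352) and Atp2a1 by 1.25 (adjusted p = 0.034). The part of fiber content in the day 7 falls of Gaa, Lamp1, Npc1 and Tfeb was not tested.

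The other glycosidases had Uninjected means from 0.92 FPKM for Manba to 22.9 FPKM for Hexa. At day 4 rises passed for Hexa, a subunit of beta-hexosaminidase (2.00, SE 0.33, adjusted p = 0.0039), and Man2b1, lysosomal alpha-mannosidase (2.37, SE 0.25, adjusted p = 0.000545). They also passed for Naglu, which trims heparan sulfate (1.47, SE 0.28, adjusted p = 0.00704), for Manba, beta-mannosidase (0.87, SE 0.24, adjusted p = 0.0285), and for the fucosidase Fuca1 (0.79, SE 0.17, adjusted p = 0.0121). Of these 5, Manba passed again at day 7, where it rose by 0.81 (SE 0.19, adjusted p = 0.0156). Man2b1 (1.09, adjusted p = 0.0586), Hexa (0.69, adjusted p = 0.19), Naglu (0.61, adjusted p = 0.35) and Fuca1 (0.28, adjusted p = 0.41) did not. The calls of Manba and Fuca1 at day 4 were lost in 9 and 3 alternatives. Gla, alpha-galactosidase A, Neu1, the lysosomal sialidase, and Idua, alpha-iduronidase, passed at neither stage. Their day 4 changes were 1.13, 0.33 and 0.45, with adjusted p of 0.0643, 0.226 and 0.0992.

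Sulfatases remove sulfate from glycosaminoglycans and glycolipids, and 3 of the 4 rose at day 4, where 20.1% of all genes rose. Galns, which acts on keratan sulfate, was at 13.8, 3.86, 6.38 and 4.47 FPKM at day 4 and at 0.763, 3.53, 1.97 and 7.52 FPKM at day 7. It was at 1.31, 0.273, 0.724 and 0.444 FPKM at day 14 and at 0.155, 0.382 and 0.675 FPKM in Uninjected, from 10 fragments in all. It rose by 2.95 (SE 0.42, adjusted p = 0.00206) at day 4 and by 1.85 (SE 0.56, adjusted p = 0.0382) at day 7. The day 7 range was wide, with its lowest library close above Uninjected, and 9 alternatives lost that call. Arsb, arylsulfatase B, rose by 1.39 (SE 0.26, adjusted p = 0.00744) and Sgsh, a heparan sulfatase, by 1.14 (SE 0.35, adjusted p = 0.0434) at day 4, the latter lost in 10 alternatives. Both have exons that overlap genes on the opposite strand, for 32.3% of the length of Arsb with Gm26527 and 21.6% of that of Sgsh with Card14. Ids, iduronate sulfatase, gave 4.33 ± 1.01 FPKM at day 4 and 5.57 ± 0.448 FPKM in Uninjected and passed at no stage.

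Of the 4 lipid hydrolases and cofactors, 3 rose at day 4 and at day 7, where 20.1% and 17.0% of all genes rose. Grn encodes progranulin, a secreted and lysosomal cofactor that macrophages make in quantity (chromosome 11, 102430315 to 102437048). Its levels were 179, 68.3, 130.0 and 77.2 FPKM at day 4 and 14.5, 58.5, 33.3 and 78.3 FPKM at day 7. At day 14 it stood at 8.01, 8.76, 11.7 and 10.2 FPKM, each above the 5.56, 4.66 and 4.93 FPKM of Uninjected. Grn rose by 4.26 (SE 0.35, adjusted p = 0.000176) at day 4 and by 2.82 (SE 0.50, adjusted p = 0.00546) at day 7. Lipa, the acid lipase of cholesteryl esters, rose by 1.93 (SE 0.45, adjusted p = 0.0169) and 1.05 (SE 0.31, adjusted p = 0.0342), and Asah1, acid ceramidase, by 1.89 (SE 0.30, adjusted p = 0.00333) and 0.82 (SE 0.24, adjusted p = 0.0356), and their day 7 calls were lost in 11 and 10 alternatives. Psap, the precursor of the saposins that present sphingolipids to their hydrolases, was the most abundant of the 40 genes in each group. It averaged 764 ± 288 FPKM at day 4 against 337 ± 22.7 FPKM in Uninjected, and although its 4 day 4 libraries lay above Uninjected, the adjusted p was 0.0783. At day 7 its change was -0.30 (adjusted p = 0.498).

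**Figure D2:**
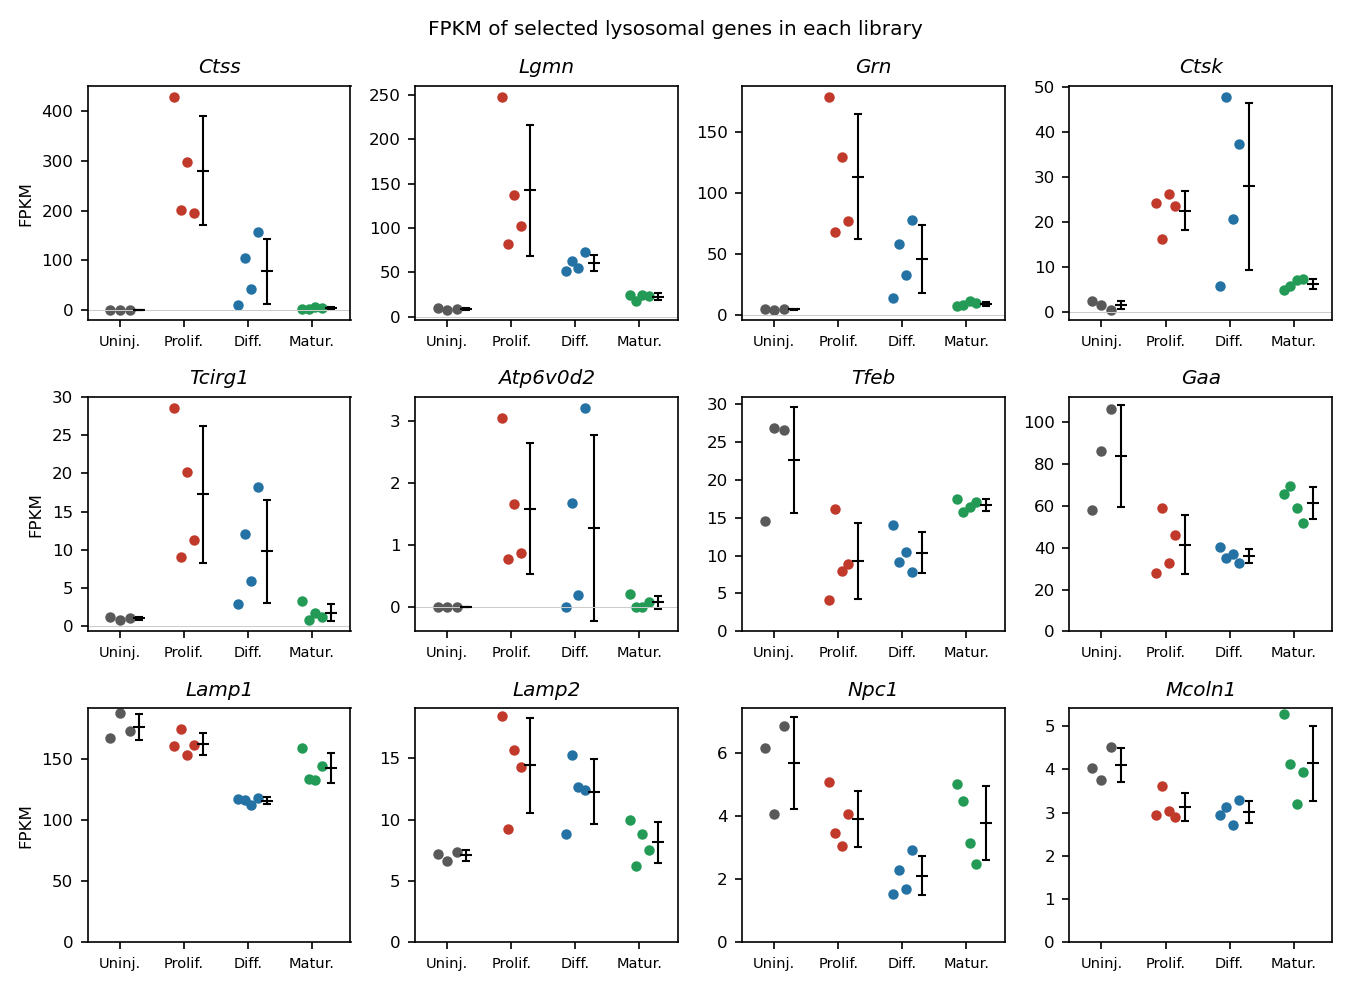
FPKM (vertical axis, linear, own scale for each gene) of 12 genes in each library (points), with the group mean and SD beside them, for the Uninjected group and the 3 stages. Ctss, Lgmn and Grn stand highest at day 4, Ctsk at day 7, and Tfeb and Gaa stand highest in Uninjected.

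The membrane proteins split. Lamp2, a glycoprotein of the lysosomal membrane needed for fusion with autophagosomes, was at 18.5, 9.27, 15.6 and 14.3 FPKM at day 4 and 8.82, 15.2, 12.7 and 12.4 FPKM at day 7. Uninjected muscle held 7.23, 6.62 and 7.41 FPKM, below both, and day 14 held 10.01, 6.22, 8.80 and 7.54 FPKM. Lamp2 rose by 0.94 (SE 0.24, adjusted p = 0.025) at day 4 and 0.73 (SE 0.20, adjusted p = 0.0253) at day 7, and 8 alternatives lost each call. Lamp1, its more abundant relative, was at 168, 188 and 173 FPKM in Uninjected and at 117, 117, 112 and 118 FPKM at day 7. It was at 160.4, 175, 153 and 162 FPKM at day 4 and at 159, 134, 133 and 145 FPKM at day 14. The day 7 libraries formed a narrow group below all others. Lamp1 fell by 0.60 at day 7 (SE 0.18, adjusted p = 0.037), a call that 11 of 18 alternatives lost, among them rescaling to equal totals (-0.02, adjusted p = 0.933). The ratio of Lamp2 to Lamp1 did not depend on that scale. It ran from 0.0352 to 0.0431 in Uninjected, from 0.0530 to 0.115 at day 4, from 0.0753 to 0.131 at day 7 and from 0.0464 to 0.0662 at day 14, and each stage lay above Uninjected without overlap.

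Npc1, the protein that lets cholesterol leave the lysosome, was at 6.14, 4.07 and 6.86 FPKM in Uninjected and at 1.55, 2.28, 1.71 and 2.94 FPKM at day 7. Day 4 libraries held 5.09, 3.46, 3.05 and 4.08 FPKM and day 14 libraries 5.02, 4.48, 3.15 and 2.50 FPKM. Only day 7 lay clear below Uninjected, with a fall of 1.24 (SE 0.25, adjusted p = 0.00841) that rescaling to equal totals ended (adjusted p = 0.123). Mcoln1, the calcium-releasing channel of the lysosome, was at 2.95, 3.62, 3.05 and 2.91 FPKM at day 4, at 2.94, 3.13, 2.72 and 3.30 FPKM at day 7, and at 4.03, 3.75 and 4.53 FPKM in Uninjected. Its day 14 levels of 5.29, 4.12, 3.20 and 3.95 FPKM surrounded those. Days 4 and 7 were below Uninjected in each library, with changes of -0.34 (adjusted p = 0.154) and -0.39 (adjusted p = 0.0962) that rescaling to equal totals turned to 0.48 and 0.13. Cd63, a tetraspanin of late endosomes and exosomes, rose by 1.64 (SE 0.27, adjusted p = 0.00397) and 1.02 (SE 0.25, adjusted p = 0.0184). Scarb2, the receptor that delivers glucocerebrosidase, had its highest mean at day 7, 22.8 ± 3.52 FPKM against 15.9 ± 2.26 FPKM in Uninjected (adjusted p = 0.0756).

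All 3 proton pump subunits rose at day 4, where 20.1% of all genes rose. Tcirg1, the membrane subunit known from the osteoclast pump (chromosome 19, 3896050 to 3907133), was at 28.6, 9.001, 20.1 and 11.3 FPKM at day 4 and at 2.93, 12.1, 5.86 and 18.2 FPKM at day 7. It was at 3.27, 0.787, 1.75 and 1.24 FPKM at day 14 and at 1.16, 0.769 and 1.05 FPKM in Uninjected. Both early stages lay above Uninjected, by 3.44 (SE 0.38, adjusted p = 0.00068) and 2.51 (SE 0.52, adjusted p = 0.00973). Atp6v0d2, another membrane-sector subunit, known from macrophages and osteoclasts, had 0 fragments in each Uninjected library. It was at 3.04, 0.779, 1.65 and 0.863 FPKM at day 4, at 0, 1.68, 0.192 and 3.21 FPKM at day 7, and at 0.213, 0, 0 and 0.0723 FPKM at day 14. Its day 4 mean was at least 11.9-fold higher than Uninjected and its day 7 mean at least 9.58-fold higher, taking a floor of 3 fragments over the Uninjected group. Without Proliferation Stage replicate 1 the day 4 bound was 8.28-fold. Without Differentiation Stage replicate 4 the day 7 bound was 4.71-fold, and day 7 overlapped Uninjected. It passed at day 4 (adjusted p = 0.00755), while at days 7 and 14 it stayed under the expression filter. Atp6v1b2, a subunit of the peripheral sector that muscle fibers also use, was at 19.0, 14.3, 17.4 and 15.4 FPKM at day 4 against 11.5, 10.6 and 10.1 FPKM in Uninjected. Its rise was 0.59 (SE 0.18, adjusted p = 0.0425), lost in 10 alternatives. At day 7 it was at 11.3, 10.9, 11.0 and 9.94 FPKM and at day 14 at 8.63, 9.97, 10.6 and 11.5 FPKM, both over the range of Uninjected.

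Tfeb encodes the factor that switches lysosomal genes on when it enters the nucleus (chromosome 17, 47737030 to 47792419). Its RNA was at 14.5, 26.8 and 26.5 FPKM in Uninjected, 4.17, 16.1, 7.94 and 8.84 FPKM at day 4, 14.03, 9.11, 10.5 and 7.77 FPKM at day 7, and 17.5, 15.7, 16.4 and 17.0 FPKM at day 14. Day 7 lay below Uninjected without overlap, while 1 day 4 library lay above the lowest Uninjected library. Tfeb fell by 1.33 (SE 0.42, adjusted p = 0.0453) at day 4, a call that 10 of 18 alternatives lost, with adjusted p up to 0.214, and leaving out any 1 library other than Proliferation Stage replicate 2 ended it. It fell by 1.07 (SE 0.27, adjusted p = 0.0212) at day 7, a call that 6 of 18 lost. Its change kept its sign under each scaling tried. RNA level says nothing of how much of the factor was in the nucleus.

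**Figure D3:**
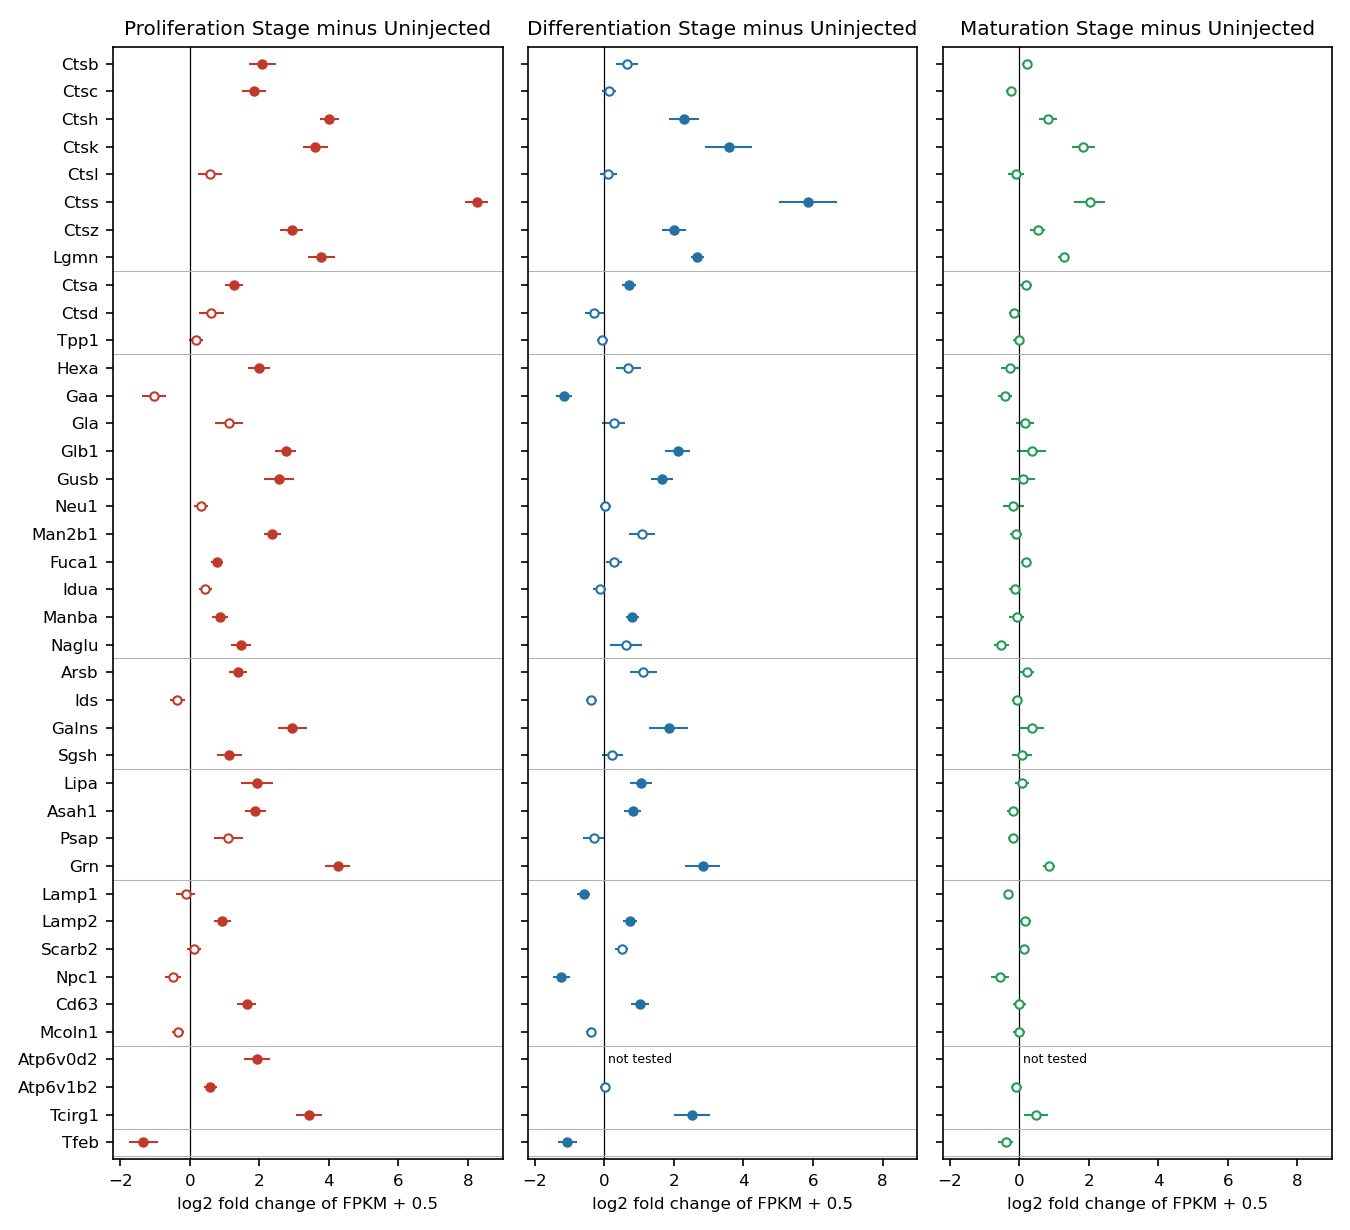
Change of each gene (rows) at each stage against Uninjected as log2 of FPKM + 0.5 (points) with its standard error (bars), where filled points passed an adjusted p of 0.05 by limma. Filled points number 27 at day 4, 20 at day 7 and 0 at day 14, and Ctss has the largest change at day 4 (8.25) and at day 7 (5.86).

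At day 14 the levels had returned toward uninjected muscle, with several cysteine proteases and Grn still at higher values. Ctss was higher by 2.03 (SE 0.43, adjusted p = 0.138), Ctsk by 1.85 (SE 0.34, adjusted p = 0.136), Lgmn by 1.28 (SE 0.17, adjusted p = 0.061), Grn by 0.86 (SE 0.17, adjusted p = 0.136) and Ctsh by 0.83 (SE 0.25, adjusted p = 0.238). These 5 and Arsb were the 6 genes in which each day 14 library lay above each Uninjected library, and Ctsc and Lamp1 the 2 in which each lay below. Of all 12253 genes tested, 6.70% lay above and 5.88% below in the same way. The two-sided exact permutation test gave p = 0.0286 before adjustment for Ctsk, Lgmn and Grn, and for Ctsc, which was lower. This is the smallest p that 4 against 3 libraries allow. For Ctsh, Arsb and Lamp1 the two-sided exact permutation test gave p = 0.0571 before adjustment, and for Ctss p = 0.0857. Because these genes were picked for libraries that did not overlap, the permutation test adds no separate evidence of a day 14 change. Lgmn passed when the libraries were rescaled to equal totals or when Maturation Stage replicate 2 was left out (adjusted p = 0.0229).

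Between the stages, most changes were falls. From day 4 to day 7, 9 of the 40 genes fell and 0 rose, where 1.93% of all 14576 genes fell and 1.13% rose. They were Ctsb, Ctsc, Ctsh, Lgmn, Hexa, Man2b1, Asah1, Psap and Atp6v1b2, with Ctsc at -1.70 (SE 0.26, adjusted p = 0.00355) and Psap at -1.41 (SE 0.30, adjusted p = 0.0211). The spread came from all 15 libraries in this comparison, and with only the 8 libraries compared 0 genes passed, so these calls rest on the pooled spread. Leaving out Proliferation Stage replicate 1 gave 3 falls and replicate 3 gave 1, and leaving out Differentiation Stage replicate 1 gave 2 and replicate 3 gave 1. Ctsk changed by -0.03 (SE 0.50, adjusted p = 0.99) over the same step.

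From day 7 to day 14, 13 of the 40 fell and 0 rose, where 9.54% of all genes fell and 4.71% rose. Ctss fell by 3.83 (SE 0.68, adjusted p = 0.00506), Tcirg1 by 2.02 (SE 0.49, adjusted p = 0.0179), Grn by 1.96 (SE 0.42, adjusted p = 0.0113) and Ctsk by 1.73 (SE 0.50, adjusted p = 0.0354). The others were Ctsh, Ctsz, Lgmn, Glb1, Gusb, Man2b1, Manba, Asah1 and Cd63. Ctsk lost its call in 10 of 19 alternatives and Tcirg1 in 4, and for both the day 14 libraries overlapped those of day 7. Under every alternative except the methods' own test, 6 of the 13 calls were kept. Leaving out Differentiation Stage replicate 1 gave 20 falls, leaving out replicate 4 or replicate 2 gave 6, and leaving out Maturation Stage replicate 1 or 2 gave 8. From day 4 to day 14, 30 of the 40 fell and 1, Tfeb, rose (0.96, SE 0.31, adjusted p = 0.031), where 20.5% of all genes fell and 13.3% rose. The rise of Tfeb was lost in 11 alternatives.

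The make-up of lysosomal RNA changed as well as its amount. The 40 genes summed to 3957, 2076, 2561 and 2066 FPKM at day 4 and to 1001, 1083 and 1094 FPKM in Uninjected, while day 7 libraries held 871, 1404, 987 and 1742 FPKM and day 14 libraries 953 to 1006 FPKM. Cysteine proteases made up 32.4 ± 3.34% (SD, n = 4) of that sum at day 4, 27.0 ± 5.07% at day 7, 14.1 ± 1.55% at day 14 and 9.58 ± 0.988% (n = 3) in Uninjected. Cathepsin S alone went from 0.0374% of the sum in Uninjected to 10.4% at day 4. Lamp1 went from 16.7% to 6.58% and Gaa from 7.83% to 1.76%, while Psap held 31.9% and 28.4%.

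**Figure D4:**
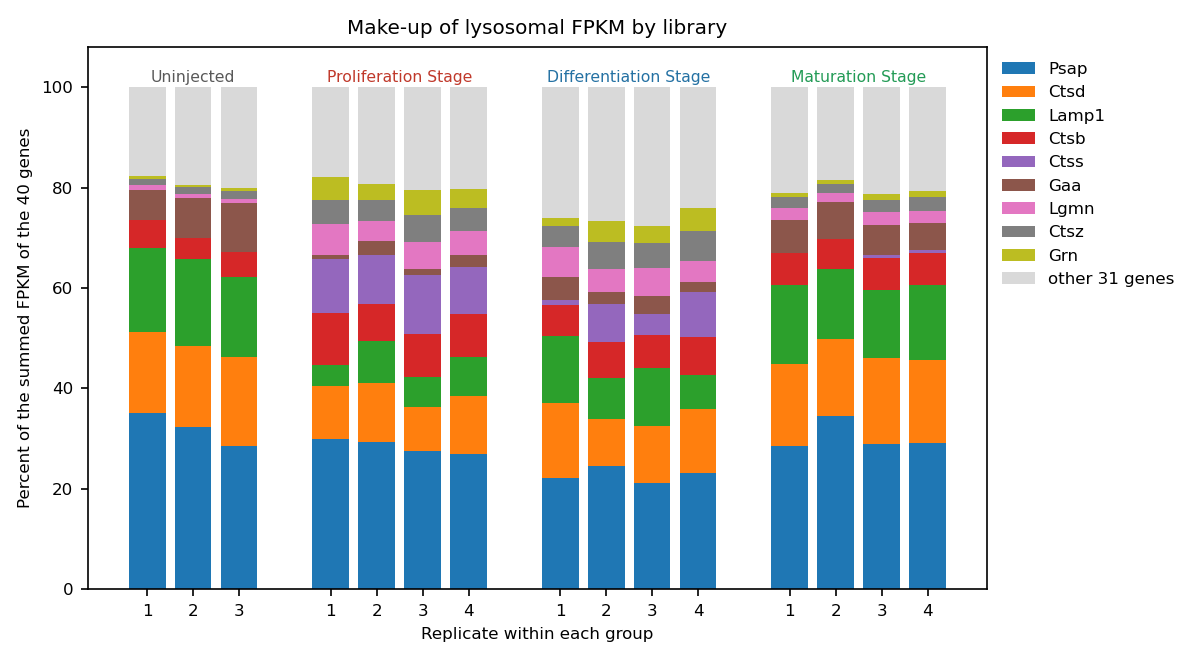
Percent of the summed FPKM of the 40 genes (vertical axis) taken by 9 named genes and by the other 31, for each library (bars). The Ctss share is visible in the Proliferation Stage, where it averages 10.4%, and the Lamp1 share averages 16.7% in Uninjected and 6.58% in the Proliferation Stage.

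Other lysosomal genes, listed from known biology and not among the 40, were counted in the same fits. Of 37 further hydrolases and accessory proteins, 21 rose and 0 fell at day 4, 14 rose and 3 fell at day 7, and 0 of 35 tested passed at day 14, with medians of 0.97, 0.59 and 0.09. Among the day 4 rises were those of Laptm5, a lysosomal protein of blood cells (6.14, adjusted p = 2.8e-05), Acp5, tartrate-resistant acid phosphatase (3.93, adjusted p = 0.000703), and Ifi30, a thiol reductase of antigen processing (3.59, adjusted p = 0.000502). Of 16 further proton pump subunits, 4 rose at day 4, a share near the 20.1% of all genes, and at day 7 3 rose while Atp6v0e2 fell by 1.19 (adjusted p = 0.0236). Of 9 genes of mannose-6-phosphate sorting, 2 rose at day 4, again near that share, namely the adaptor Gga2 (2.23, adjusted p = 0.000829) and the uncovering enzyme Nagpa (0.99, adjusted p = 0.0342). At day 7 Gga2 and the receptor Igf2r rose and Gga1 fell. Over all genes, 17.0% rose and 12.5% fell at day 7.

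Inhibitors and regulators were measured beside the enzymes. Of 4 cystatins, which block cysteine cathepsins, Cstb rose by 3.06 (adjusted p = 0.00119) and Cst7 by 1.28 (adjusted p = 0.00676) at day 4. Cst3, the abundant secreted cystatin, averaged 309 ± 94.5 FPKM at day 4 and 323 ± 63.8 FPKM in Uninjected. Of 16 relatives of Tfeb and regulators of mTORC1 on the lysosome, 14 were tested at day 4. Of these, 1 rose and 1 fell, shares below the 20.1% and 9.05% of all genes. Rptor rose (0.66, adjusted p = 0.033) and Rragd, a GTPase that Tfeb itself induces, fell by 1.65 (adjusted p = 0.0486). Rragd also fell at day 7, by 1.89 (adjusted p = 0.0102). It was the only 1 of 14 tested to be called there, where 17.0% of all genes rose and 12.5% fell. Tfe3 averaged 2.48 ± 1.14 FPKM at day 4 and 1.12 ± 0.296 FPKM in Uninjected, and Mitf 1.52 ± 0.448 FPKM and 2.37 ± 0.776 FPKM, and neither passed.

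Markers of macrophages moved with the lysosomal genes. All 15 markers, of which 0 are among the 40 genes, rose at day 4 and at day 7, and 0 of 11 tested passed at day 14. Their summed level was 1199 to 2958 FPKM at day 4, 82.7 to 1090 FPKM at day 7, 22.7 to 63.4 FPKM at day 14 and 5.53 to 18.6 FPKM in Uninjected, where the defining markers Itgam and Fcgr1 were at 0. Ptprc, which encodes CD45, averaged 3.05 ± 1.71 FPKM at day 4 and 0.0168 ± 0.0148 FPKM in Uninjected. Within day 7, replicate 1 had the lowest macrophage sum, 82.7 FPKM, and the lowest level of 29 of the 40 lysosomal genes, and replicate 4 the highest sum, 1090 FPKM, and the highest level of 27. Within day 4, replicate 1 had the highest sum, 2958 FPKM, and the highest level of 33. That library also had the lowest FPKM total and the lowest mitochondrial share, 5.09% of FPKM. How often these libraries held the lowest or highest level over all genes was not counted, so the member counts have no background. The match was not particular to macrophages. The sum of fibro-adipogenic progenitor markers was also lowest at day 7 in replicate 1 (231 FPKM), though highest in replicate 2 (1768 FPKM). At day 4 it was highest in replicate 1 (1228 FPKM). Adult fiber markers went the opposite way. Their sum was lowest in replicate 1 at day 4 (6426 FPKM) and replicate 4 at day 7 (43246 FPKM), and highest at day 7 in replicate 1 (95449 FPKM).

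Other markers moved too. At day 4, 6 of 9 markers of fibro-adipogenic progenitors rose and 3 of 7 endothelial markers fell, while the median change of the 10 adult fiber markers was -2.23, with none called. At day 7, 4 of 9 progenitor markers rose and 1 fell, the endothelial markers Cldn5 and Emcn rose and Flt1 fell, and 3 of 10 fiber markers fell, with a median of -0.58. The fiber markers summed to 6426 to 68224 FPKM at day 4 and 43246 to 95449 FPKM at day 7. Some markers listed for other leukocytes rose as well. The T and NK cell markers Gzma (2.51, adjusted p = 0.0012), Nkg7 (2.20, adjusted p = 0.0013) and Cd4 (2.06, adjusted p = 0.0023) rose at day 4, the 3 of 8 that passed the filter on low values. So did the neutrophil markers Csf3r (2.79, adjusted p = 0.00387) and Mmp9 (1.84, adjusted p = 0.0393), the 2 of 7 that passed it. Their sums at day 4 were 4.76 to 10.3 FPKM and 2.51 to 15.5 FPKM, against 0.0626 to 0.372 FPKM and 0 to 0.632 FPKM in Uninjected. The T cell markers Cd3d, Cd3e, Cd3g and Cd8a stayed under the filter at day 4. So did the neutrophil markers S100a8, S100a9, Retnlg and Cxcr2, and Ly6g was at 0 in each day 4 library. Cd4 rose at day 7 as well (1.26, adjusted p = 0.049). Of the osteoclast and giant cell markers, Acp5 and Mmp9 rose at day 4 and Nfatc1 fell, while Ocstamp and Dcstamp, needed for fusion of osteoclasts, averaged 0.203 and 0.0574 FPKM and were at 0 in Uninjected. The part of these cell types in the lysosomal levels was not tested. Without Proliferation Stage replicate 1, 23 genes rose and 0 fell at day 4. Without Differentiation Stage replicate 1, 20 rose and 4 fell at day 7, and without replicate 4, 11 rose and 3 fell.

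**Figure D5:**
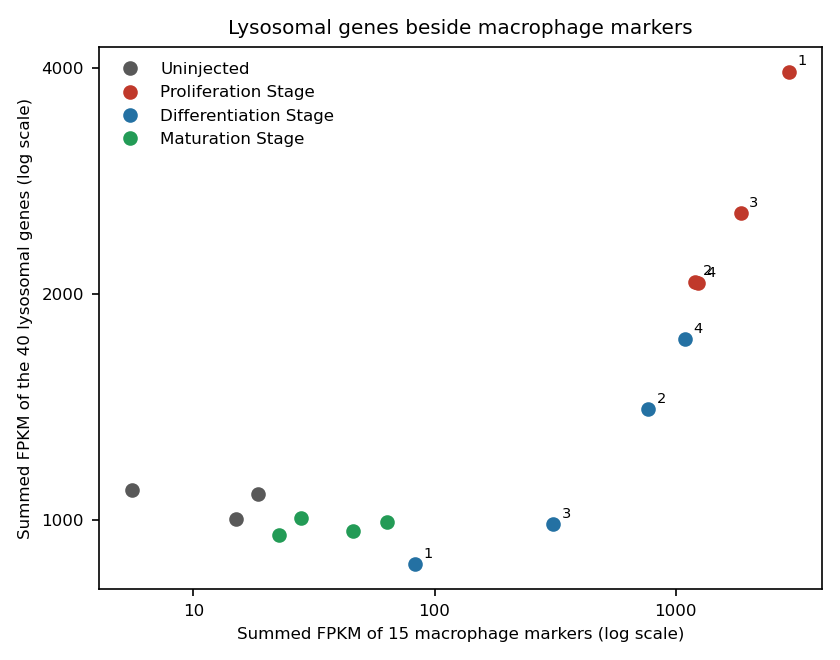
Summed FPKM of the 40 lysosomal genes (vertical axis, log scale) against summed FPKM of 15 macrophage markers (horizontal axis, log scale) in each library (points, colored by group, replicate numbers shown for the Proliferation and Differentiation Stages). The 8 libraries with marker sums under 100 FPKM, those of Uninjected, the Maturation Stage and Differentiation Stage replicate 1, lie between 871 and 1094 FPKM.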

How the data were processed

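RNA was extracted from the TA muscle (15 libraries), poly-A selected and sequenced, and the authors deposited FPKM values per gene in 3 tables, each of a stage beside the same 3 Uninjected libraries, on build mm10 per the labels. The sources used here do not give the aligner, the counter or the annotation. The tables also hold the authors' own means, SDs, log2 ratios and p-values, none of which were used. Each title names a numbered subject, and p-values measure the spread between these animals.

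Whole fragments were recovered from FPKM with GENCODE M21 exon lengths (52073 of 56748 gene IDs matched), and 23756 of 25261 genes came out whole within 0.01 in every library. Those fragments give the depth and the counting intervals, which cover counting error only.

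Stages were compared with Uninjected by limma 3.58.1 (R 4.3.3, statmod 1.5.0, moderated variance with trend and robust fitting) on log2(FPKM + 0.5), which understates changes of low genes. A gene entered a fit with at least 0.5 FPKM in 3 of its libraries, and a call needed a p of at most 0.05 after Benjamini-Hochberg adjustment across every gene of the fit. Stages were compared with each other in 1 fit of all 15 libraries. Single values were also compared by a two-sided exact permutation test of mean FPKM (scipy 1.17.1), whose smallest p with 4 against 3 libraries, 35 ways, is 0.0286. The fits were tested on simulated data. Promoter sequences are from RefSeq (GRCm38.p6).

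The genes and lists were chosen with earlier results of these data known. Per-library values are given for the 10 largest rises at the Proliferation Stage, for genes called lower than Uninjected, for genes called at the Maturation Stage (none), and always for Tfeb, Mcoln1, Atp6v0d2, Atp6v1b2, Tcirg1, Lamp1 and Lamp2. Alternatives were other pseudocounts (0.1 and 1), no filter or 1 FPKM, 3 rescalings, a plain variance, the methods' own test on FPKM, a replicate block, other sets of libraries and leaving out each library.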

Additional observations from a re-analysis of the deposited data

Results flagged for a closer look

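In 120 groups of 4 libraries (40 genes at 3 stages), 8 (6.67%) held a library far from the other 3 by Dixon's criterion, and chance gives about 1 in 20. In the Proliferation Stage, replicate 1 stood high for Ctsl, at 44.5 FPKM against 19.5 to 22.0 FPKM in the others, and for Ctsd, at 417 FPKM against 228 to 244 FPKM. In the Maturation Stage, replicate 2 stood low for Lgmn, at 17.5 FPKM (56 fragments) against 23.6 to 24.9 FPKM, for Neu1, at 2.13 FPKM (11 fragments) against 5.10 to 5.90 FPKM, and for Fuca1, at 5.53 FPKM (25 fragments) against 6.71 to 6.90 FPKM. The same library stood high for Psap, at 329 FPKM against 281 to 287 FPKM. Ctsc was low in Maturation Stage replicate 3, at 3.83 FPKM (58 fragments) against 4.49 to 4.61 FPKM, and Gusb in replicate 1, at 0.892 FPKM (7 fragments) against 2.62 to 2.89 FPKM. No Differentiation Stage library was singled out, although the range there was wide.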

How the results depend on the processing

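The counts given in the report were 26 genes higher and 1 lower at day 4, 16 and 4 at day 7, 0 and 0 at day 14, 0 and 9 from day 4 to day 7, 0 and 13 from day 7 to day 14, and 1 and 30 from day 4 to day 14. Counts not given here stayed within 1.5 times of these. For single genes the study's methods name Student's t-test or a one-way ANOVA, and only the t-test was run here, also between stages. With the adjustment used here, it called 1 gene higher and 0 lower at day 4 and 2 higher and 1 lower at day 7. It called 1 lower from day 4 to day 7, 1 higher and 2 lower from day 7 to day 14, and 0 higher and 8 lower from day 4 to day 14. Rescaling to equal totals gave 0 lower at day 4, 0 lower at day 7, 1 higher at day 14 (Lgmn), 1 lower from day 4 to day 7 and 0 higher from day 4 to day 14. Rescaling without mitochondrial genes gave 0 lower at day 4, 2 lower at day 7, 2 lower from day 4 to day 7 and 0 higher from day 4 to day 14. Quantile normalization gave 2 lower at day 4, 4 lower from day 4 to day 7, 2 higher from day 7 to day 14 and 2 higher from day 4 to day 14. Without the filter, 0 were lower at day 4, 5 lower from day 4 to day 7 and 0 higher from day 4 to day 14. A pseudocount of 0.1 gave 5 lower from day 4 to day 7, and a filter at 1 FPKM 1 higher from day 7 to day 14. A plain variance gave 2 lower at day 4 and 1 higher from day 7 to day 14. All 15 libraries in 1 fit gave 2 lower at day 4. Only the 8 libraries compared gave 0 lower from day 4 to day 7, 2 higher from day 7 to day 14 and 0 higher from day 4 to day 14. Leaving out each library gave 0 to 2 lower at day 4, 10 to 20 higher and 2 to 4 lower at day 7, 0 to 1 higher at day 14, 1 to 12 lower from day 4 to day 7, 0 to 1 higher and 6 to 20 lower from day 7 to day 14, and 0 to 2 higher from day 4 to day 14. Scarb2 from day 4 to day 14 turned from 0.01 to -0.81 on rescaling to equal totals and to -0.64 on rescaling without mitochondrial genes. Among all genes called at day 4, the share that rose was 69.0%, and 96.5%, 90.2% and 50.7% under the 3 rescalings in the order above. It was 57.6% at day 7 (87.6%, 72.9%, 46.6%), 37.0% from day 4 to day 7 (21.3%, 24.1%, 40.3%), 33.0% from day 7 to day 14 (9.20%, 11.9%, 46.1%) and 39.3% from day 4 to day 14 (6.26%, 9.29%, 53.2%). The cause of these differences was not tested. Of 21 same-number pairs of libraries, 0 had a correlation of deviations from the group means above 0.1, with values from -0.48 to 0.07. Other pairs ran from -0.39 to 0.50, so these correlations cannot show whether replicate numbers pair the samples. A fit with the replicate block gave 10 higher and 1 lower at day 7 and 1 lower from day 4 to day 7. Depth limits the 13 genes under 10 fragments in a library.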
